A study of Mus musculus with 24 samples.

Results

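Shank2, Shank3, Dscam, and Ank2 are 4 autism-linked genes whose products build synapses, neuronal contacts, and the membrane skeleton, and the binding of 3 transcription regulators (TRs) at these genes was described in the embryonic mouse cortex. The 4 genes, of 21951 protein-coding genes annotated by GENCODE M21 on GRCm38, were chosen by name. Every peak that overlapped the body of a member, or the 20 kb on either side, was taken, which gave 389 of the 315145 peaks in 6 lists. Peaks were called promoter peaks where they touched the 2000 bp before a transcription start site (TSS) of any gene, and the others were called exonic or intronic by the position of their summit, or flanking where they lay outside the gene.

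ChIP-seq was performed on cortex of wild-type mice (genotype WT, kept on a CD1 background by the study's methods) at 2 embryonic stages, E15.5 and E18.5. The antibodies were against ARID1B, FOXP1, and a protein that the labels name TCF4 and the methods name TCF7L2, which is the name used here, and every ChIP had an input control without antibody. Each TR and stage had 2 ChIP and 2 input libraries, 24 in all, and the authors called 1 peak list from the merged replicates, so no replicate spread was available and no test was made. Whole cortex was used, so a peak cannot be assigned to a cell type.

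SHANK2 and SHANK3 are scaffold proteins of the postsynaptic density, where they tie glutamate receptors and their partners to the actin cytoskeleton, and both genes are known to make long and short isoforms from several promoters. DSCAM is an adhesion molecule of the immunoglobulin superfamily, known for the self-avoidance and spacing of neurites. Ank2 encodes ankyrin-B, an adaptor that links membrane proteins to the spectrin skeleton, with long neuronal isoforms found in axons. ARID1B belongs to the BAF complex, which remodels chromatin, FOXP1 is a forkhead transcription factor, and TCF7L2 is a DNA-binding effector of Wnt signaling.

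The fold enrichment of a peak is the number of reads over its summit divided by the genome-wide background, each with 1 read added. The background recovered from the lists lay between 2.81 reads (FOXP1 at E18.5) and 8.63 reads (ARID1B at E15.5), and the lowest fold enrichment that was called was 3.21 and 2.33 in these lists. A site missing from the FOXP1 list at E18.5 is thus not shown to be unbound. Intervals below are exact 95% Poisson intervals of the reads over the summit and cover counting error only. Promoter peaks of all 6 lists were found at 7 of 8 marker genes of the developing cortex (Eomes lacked FOXP1 at E18.5), against 51.8% of all protein-coding genes. Of 8 markers of liver, heart, pancreas, blood, skin, and T cells, 0 had a promoter peak in any list, and 35.9% of all genes also had none. The markers were not matched for CpG content, which differs between bound and unbound starts (below), so these counts do not identify the tissue.

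The 4 genes differed in where their peaks lay. Shank3 (chromosome 15, 89499623 to 89560261, 60.6 kb) had 29 peaks, of which 22 were at promoters, 7 were exonic, and 0 were intronic. Dscam (chromosome 16, 96590840 to 97170752, 579.9 kb) had 148 peaks, of which 8 were at promoters and 140 were intronic, with 2 of the 8 at the promoter of another transcript (AC154538.2). Shank2 (chromosome 7, 144001928 to 144424494, 422.6 kb) and Ank2 (chromosome 3, 126921612 to 127499350, 577.7 kb) lay between these, with 25 promoter peaks of 94 and 38 of 118. At E15.5, promoters held 19 of the 99 ARID1B peaks, 18 of the 87 FOXP1 peaks, and 13 of the 34 TCF7L2 peaks of the 4 genes, against 26.9%, 30.6%, and 49.4% of all peaks of these lists. At E18.5 they held 15 of 85, 11 of 27, and 17 of 57, against 27.6%, 55.7%, and 38.4%.

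**Figure D1:**
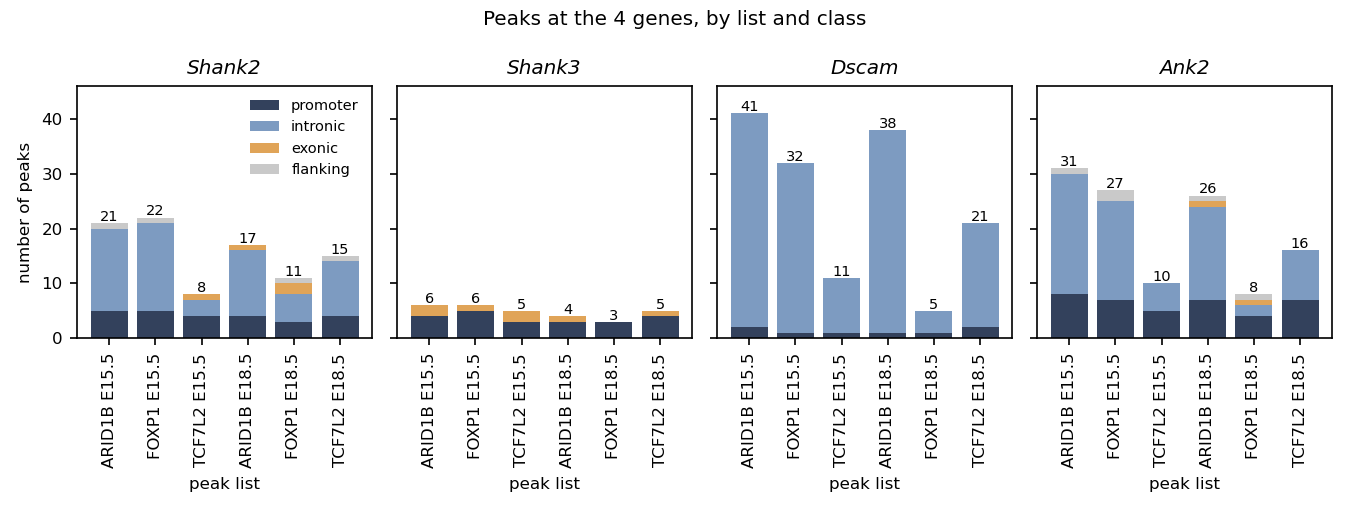
Number of peaks (vertical axis) at each gene in each of the 6 lists (horizontal axis), with the bars split by class and the total printed above each bar. Dscam had the most peaks of the 4 genes in the ARID1B lists (41 and 38) and nearly all of them were intronic, but at E15.5 it had 16, as Ank2 did, among peaks with a fold of at least 4, and 12 against 14 at Ank2 with a −log10 p of at least 15.

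Dscam showed the widest range over the lists, with 41 ARID1B, 32 FOXP1, and 11 TCF7L2 peaks at E15.5, followed by 38, 5, and 21 at E18.5. Per 100 kb of gene and flanks, ARID1B peaks at Dscam numbered 6.61 at E15.5 and 6.13 at E18.5, more than in 83.7% and 82.5% of the 4047 autosomal protein-coding genes with a body of at least 60 kb, whose medians were 3.16 and 2.98. FOXP1 peaks at Dscam at E18.5 numbered 0.807 per 100 kb, which exceeded 36.0% of these genes. Shank3, whose body is just over 60 kb, had 4.97 TCF7L2 peaks per 100 kb at E15.5, against a median of 1.43 over these longer genes and a median of 2.09 and an upper quartile of 4.72 over all 20807 autosomal protein-coding genes.

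Merged by overlaps of at least 1 base, the 389 peaks fell into 120 loci, of which 13 had a peak in all 6 lists (10.8%, against 17.7% of all loci of the 6 lists) and 34 had a peak in 1 list (28.3%, against 32.3%). Of the 19 promoter loci, 8 were in all 6 lists (42.1%, against 53.1% of all promoter loci). Of the 101 other loci, 5 were (4.95%, against 6.51%). These shares lay below those of the whole genome, but within each class they rest on few loci, and the differences were not tested. Promoter loci, which were more often in all 6 lists, were 19 of the 120 here, against 22507 of all 93916 loci. The 13 shared loci were 4 of 25 at Shank2, 2 of 6 at Shank3, 3 of 50 at Dscam, and 4 of 39 at Ank2. At E15.5, all 3 TRs met at 5 loci of Shank2, 3 of Shank3, 11 of Dscam, and 9 of Ank2, and at E18.5 at 4, 2, 3, and 4. In sum, these were 28 and 13 of the 120 loci, against 26.3% and 19.4% of all loci. Loci of a single TR were 32 of ARID1B, 13 of FOXP1, and 5 of TCF7L2, against 26%, 10.5%, and 8.02% of all loci, so the share of ARID1B alone was near that of the genome.

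**Figure D2:**
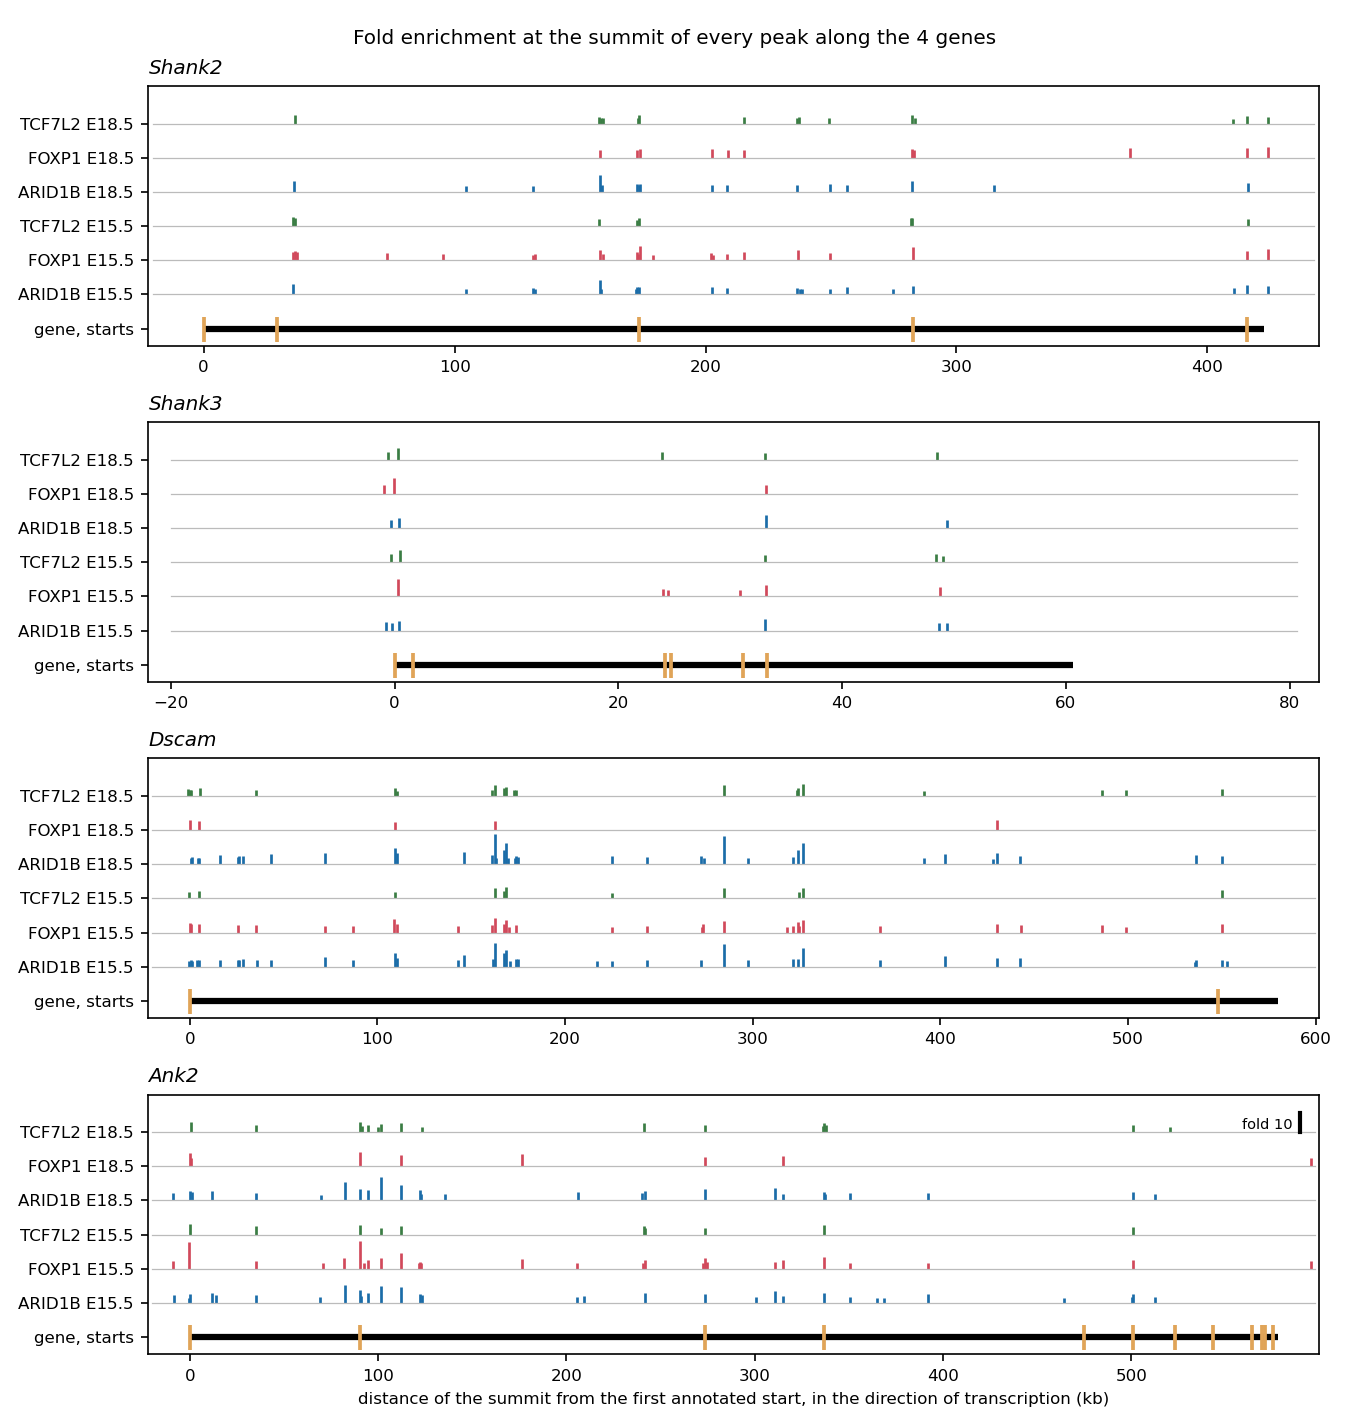
Every peak of the 6 lists along the 4 genes, by the distance of its summit from the first annotated start in the direction of transcription (horizontal axis, kb), with the height of a line giving the fold enrichment (scale bar, fold 10) and yellow ticks on the gene marking starts. Among the highest lines were those of ARID1B inside Dscam at E18.5 (15.6 and 14.4) and of FOXP1 at the first 2 starts of Ank2 at E15.5 (13.9 and 14.2).

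The highest peaks at Dscam were those of ARID1B far inside the gene. The peak 162.5 kb from the start, in intron 3 of the long transcript (locus at chr16:97007508-97008874), had an ARID1B fold enrichment of 12.5 (10.5 to 14.7) at E15.5 and 15.6 (12.8 to 18.7) at E18.5. This was higher than 98.9% and 99.4% of all ARID1B peaks outside promoters. The same locus had peaks of FOXP1, with 7.34 and 4.68, and of TCF7L2, with 5.46 and 5.47, and the summits of the 6 lists lay within 117 bp of each other. A second locus in the same intron, 284.8 kb from the start (chr16:96885673-96886412), had ARID1B at 12 (10.1 to 14.2) and 14.4 (11.8 to 17.5), TCF7L2 at 5.25 and 5.47, and FOXP1 at 5.95 at E15.5 with no peak at E18.5.

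The 200 bases around the ARID1B summits of these loci are shown because they carry the highest peaks at any of the 4 genes. They are written on the forward strand of GRCm38, from the RefSeq genome, with capitals at matches, on either strand, to TGTTTAC (the core of forkhead motifs) and CATCTG (an E-box).
Dscam, 162.5 kb from the start (chr16:97008127-97008326): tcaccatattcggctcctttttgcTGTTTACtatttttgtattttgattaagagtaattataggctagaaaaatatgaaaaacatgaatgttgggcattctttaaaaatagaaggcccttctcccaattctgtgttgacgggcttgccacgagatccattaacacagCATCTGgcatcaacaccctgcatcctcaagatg
Dscam, 284.8 kb from the start (chr16:96885884-96886083): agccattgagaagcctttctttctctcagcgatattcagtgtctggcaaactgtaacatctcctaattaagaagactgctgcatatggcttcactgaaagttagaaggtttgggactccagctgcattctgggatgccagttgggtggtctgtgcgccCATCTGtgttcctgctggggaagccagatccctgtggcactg
The first window held 1 forkhead match and 1 E-box match, and the second held 1 E-box match and overlapped an exon of the non-coding RefSeq gene Gm32432. E-box matches were frequent at ARID1B summits outside promoters, in 34.5% and 34.0% of all such windows at the 2 stages, so such a match is common in this list.

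Intron 3 of Dscam held further strong peaks of all 3 TRs. The locus 326.9 kb from the start (chr16:96843109-96844588) carried the highest TCF7L2 peak of Dscam at E18.5, 6.24 (4.74 to 8.07), with 5.25 at E15.5, beside ARID1B at 9.70 and 11.1 and FOXP1 at 6.71 at E15.5. The locus 168.4 kb from the start (chr16:97001775-97002710) carried the highest TCF7L2 peak of Dscam at E15.5, 5.67 (4.28 to 7.37), beside ARID1B at 8.73 and 10.8 and FOXP1 at 6.45 at E15.5. In intron 1, the locus 109.2 kb from the start (chr16:97060978-97062079) was in all 6 lists, with ARID1B at 6.95 and 8.56, FOXP1 at 7.21 and 4.38, and TCF7L2 at 3.27 and 4.27. So was a lower locus 4.9 kb from the start (chr16:97165331-97166285), where the folds ranged from 3.30 (ARID1B at E15.5) to 4.68 (FOXP1 at E18.5).

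The promoter of Dscam was bound more weakly than most bound promoters. Its peaks had fold enrichments of 3.21 (2.27 to 4.43) for ARID1B, 4.94 (3.53 to 6.73) for FOXP1, and 3.47 (2.42 to 4.85) for TCF7L2 at E15.5. At E18.5, FOXP1 had 5.12 (3.61 to 7.08), ARID1B had no promoter peak, and TCF7L2 had 3.39 (2.33 to 4.80) at −976 bp from the start and 3.07 (2.06 to 4.41) at the locus that FOXP1 shared. Just past the start, ARID1B at E18.5 had peaks of 3.09 and 3.51, with summits 604 and 1009 bp into the gene, at a locus (chr16:97169515-97170332) that was found in 4 lists. Among genes with a promoter peak in the same list, only 3.02% (TCF7L2 at E15.5) to 12.6% (FOXP1 at E15.5) had a lower strongest promoter peak than Dscam. Dscam was the only member without a promoter peak in 1 list: all 4 members had one in the other 5 lists, in which 58.8% (ARID1B at E15.5), 61.8% (FOXP1 at E15.5), 57.3% (TCF7L2 at E15.5), 55% (FOXP1 at E18.5), and 61.2% (TCF7L2 at E18.5) of all protein-coding genes had one, and 3 members had one for ARID1B at E18.5, against 57.3%. In all 6 lists, 3 of 4 members had a promoter peak, against 51.8% of all genes. Promoter peaks of all 3 TRs were present at 4 members at E15.5 and at 3 at E18.5, against 55.5% and 52.9% of all genes, and no member lacked a promoter peak in every list, as 35.9% of all genes did.

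**Figure D3:**
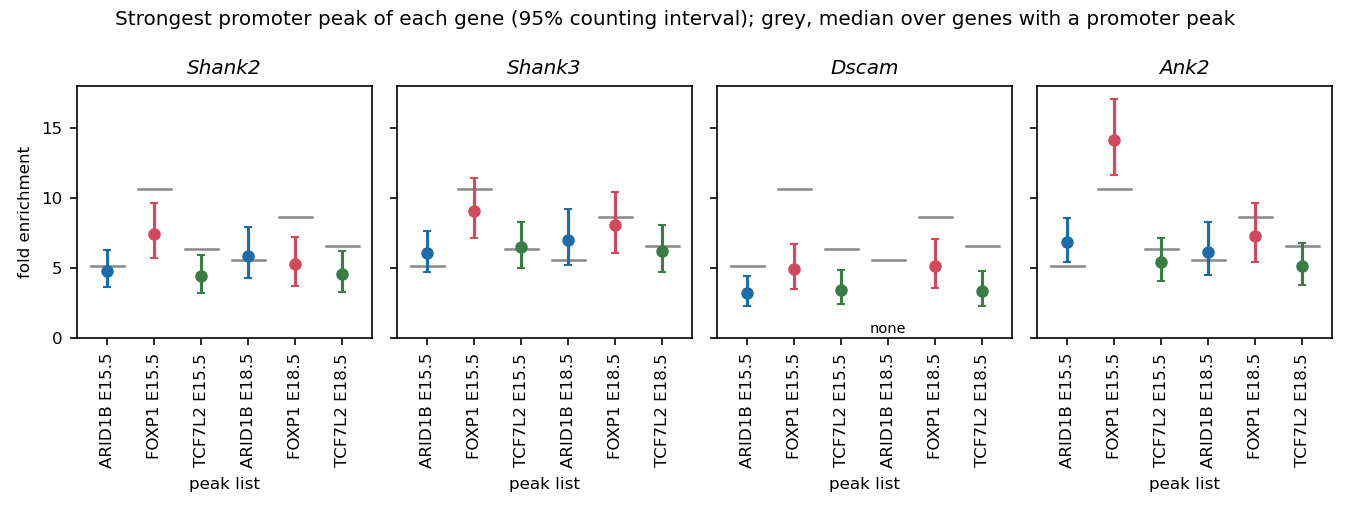
Fold enrichment (vertical axis) of the strongest promoter peak of each gene in each list (horizontal axis), with 95% counting intervals, and in grey the median over all genes with a promoter peak in that list. Dscam lay below the grey line in all 5 lists in which it had a peak, and Ank2 lay above it by the largest margin for FOXP1 at E15.5 (14.2 against 10.6).

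Dscam held the most loci of ARID1B alone, but it also held the most loci of any kind. They were 16 of its 50 loci, against 11 of 39 at Ank2 and 26% of all loci. Of the 16, 9 were found at both stages, a share that was not counted over the genome. The highest of them, 146.2 kb from the start (chr16:97024325-97024853), had 6.33 (4.95 to 7.96) at E15.5 and 6.17 (4.50 to 8.26) at E18.5. FOXP1 alone had 1 locus and TCF7L2 alone had 2, the highest with 2.91 and 3.39. The highest FOXP1 peak inside Dscam at E18.5 (5.27, 3.73 to 7.25) lay 430.3 kb from the start in intron 11 (chr16:96740092-96740793), at a locus that also had ARID1B at both stages (4.73 and 5.61) and FOXP1 at E15.5 (4.30).

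At Ank2, the strongest promoter peaks of ARID1B and of FOXP1 at E15.5 ranked above those of most bound genes, and those of TCF7L2 below. These rankings take the highest peak over all starts of a gene (12 at Ank2), which favours genes with many starts. At the first start, FOXP1 at E15.5 had a fold enrichment of 13.9 (11.5 to 16.8), ARID1B had 4.46, and TCF7L2 had 5.46 (4.10 to 7.13), and at E18.5 the values were 6.74 for FOXP1, 4.91 for ARID1B, and 5.04 for TCF7L2. There, ARID1B lay below the medians of the strongest promoter peak over bound genes (5.17 and 5.61), and FOXP1 at E15.5 lay above its median (10.6). At the second start, 90.3 kb into the gene, FOXP1 at E15.5 had 14.2 (11.7 to 17), which was the highest FOXP1 peak at the 4 genes, and ARID1B had 6.86 (5.43 to 8.56), which was higher than the strongest promoter peak of 83.1% of genes with an ARID1B promoter peak. FOXP1 at E18.5 had 7.33 (5.47 to 9.63) there, and only 31.7% of bound genes were lower, against 77.5% at E15.5. The strongest TCF7L2 promoter peaks of Ank2, 5.46 and 5.14 at the 2 stages, exceeded 31.0% and 26.1% of bound genes. The FOXP1 list at E18.5 was called from fewer reads, and the part of depth in its difference from E15.5 was not tested.

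The third start of Ank2, 273.4 kb into the gene, was also bound in all 6 lists, with folds from 3.37 (TCF7L2 at E15.5) to 6.03 (ARID1B at E18.5). The fourth and the sixth start were bound in 5 lists each and lacked FOXP1 at E18.5. The strongest peaks of ARID1B lay between the first and the second start or just past the second, in intron 1 of the longest transcript. The highest at E15.5 was 82.1 kb from the first start (chr3:127416815-127417534), with 9.17 (7.5 to 11.1) and 9.82 (7.67 to 12.4) at the 2 stages, and it had FOXP1 at E15.5 (5.82) but TCF7L2 in neither list. The highest at E18.5 was 101.4 kb from the start (chr3:127397598-127398276), with 8.64 (7.02 to 10.5) and 12.3 (9.91 to 15.2), and it had TCF7L2 at 3.47 and 4.05 and FOXP1 at 5.82 at E15.5.

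A locus of Ank2 112.1 kb from the start (chr3:127386780-127387726) was in all 6 lists, with its summits within 82 bp. It had ARID1B at 8.37 and 7.85, FOXP1 at 8.10 and 5.71, and TCF7L2 at 4.31 and 4.71, and its FOXP1 peak at E15.5 was higher than 96.5% of all FOXP1 peaks outside promoters. The window around its highest summit is shown because it is a site of all 3 TRs, with capitals at matches to the forkhead core and the E-box on either strand.
Ank2, 112.1 kb from the start (chr3:127387126-127387325): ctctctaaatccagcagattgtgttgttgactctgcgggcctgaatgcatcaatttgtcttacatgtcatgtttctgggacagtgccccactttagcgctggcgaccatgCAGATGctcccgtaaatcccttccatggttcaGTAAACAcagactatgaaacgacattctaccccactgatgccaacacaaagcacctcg
The window held 1 E-box match 13 bp from the summit and 1 forkhead match, and it overlapped an exon of the non-coding RefSeq gene Gm52631.

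Loci of a single TR were also found at Ank2. ARID1B alone had 11 of the 39 loci, 3 of them at both stages, and the highest, 11.9 kb from the start (chr3:127487143-127487843), had 5.26 (4.02 to 6.77) and 4.77 (3.33 to 6.64). FOXP1 alone had 6 loci, 2 of them at both stages. TCF7L2 alone had 3 loci, all at E18.5, the highest with 3.50 at the promoter of the antisense transcript Gm16958.

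Shank3 was bound at its first start and at a start far inside the gene. The locus at the first start (chr15:89498410-89500920) had FOXP1 at 9.11 (7.14 to 11.5) and 8.06 (6.1 to 10.5), TCF7L2 at 6.50 (5.01 to 8.31) and 6.24 (4.74 to 8.07), and ARID1B at 5.08 and 5.47 at the 2 stages. FOXP1 and TCF7L2 were highest at this start. ARID1B was highest at the sixth start, 33.3 kb into the gene (chr15:89532368-89533254), with 6.06 (4.72 to 7.67) and 7.01 (5.22 to 9.23), higher than 79.9% and 84.2% of all ARID1B promoter peaks. Set against the strongest promoter peak of each bound gene, Shank3 exceeded 69.7% and 75.8% of genes for ARID1B, 38.2% and 40.6% for FOXP1, and 50.6% and 43.1% for TCF7L2. FOXP1 had 5.95 and 4.82 there, and TCF7L2 had 3.68 and 3.72.

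The 200 bases before the sixth start of Shank3, which is that of the short coding transcript Shank3-207, are shown because the summits of all 6 lists lay in them, between 59 and 161 bp before the start, with capitals at CG.
Shank3, before the sixth start (chr15:89532690-89532889): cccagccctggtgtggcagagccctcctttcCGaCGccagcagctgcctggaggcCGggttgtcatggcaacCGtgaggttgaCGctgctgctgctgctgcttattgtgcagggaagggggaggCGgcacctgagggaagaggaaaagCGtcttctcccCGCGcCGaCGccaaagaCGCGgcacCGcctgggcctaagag
They hold 14 CG dinucleotides. In the 500 bp on either side of this start, CpG was observed at 0.355 of the frequency expected from C and G, against 0.843 at the first start.

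Between these starts of Shank3, binding was weak or absent. The third and the fourth start (24.1 kb and 24.7 kb into the gene) had peaks of FOXP1 at E15.5 (3.67) and TCF7L2 at E18.5 (3.83) and of no other list. Their CpG ratios were 0.865 and 0.772, against 0.843 at the first start. The fifth start had FOXP1 at E15.5 alone (3.42, 2.28 to 4.95). Past the sixth start, an exonic locus 48.8 kb into the gene, in exon 21 (chr15:89547659-89549229), was found in 5 lists, with folds from 3.75 (ARID1B at E15.5) to 5.06 (FOXP1 at E15.5), and lacked FOXP1 at E18.5. Its peaks exceeded between 51.4% (ARID1B at E15.5) and 79.7% (TCF7L2 at E18.5) of the peaks outside promoters in the same list.

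Shank2 was not bound in any list at its first 2 starts annotated by GENCODE. Predicted starts of RefSeq 23.3 kb further upstream had peaks in all 6 lists (see the last section). The third start of Shank2, 173.6 kb into the gene, had peaks in all 6 lists, with ARID1B at 4.01 and 4.35, FOXP1 at 7.47 (5.70 to 9.62) and 4.09, and TCF7L2 at 4.41 (3.21 to 5.94) and 4.60 (3.33 to 6.20). The fourth start, 282.5 kb into the gene, had ARID1B at 4.28 and 5.89 (4.27 to 7.94), FOXP1 at 6.96 and 4.68, and TCF7L2 at 4.31 and 4.60. Both are starts of shorter coding transcripts. The fifth start, of a non-coding transcript near the end of the gene, had peaks in its promoter in 5 lists and a TCF7L2 peak at E15.5 (3.89) just past it, so its locus was 1 of the 4 loci of Shank2 in all 6 lists. Among these peaks were the highest promoter peak of ARID1B at E15.5 (4.81, 3.63 to 6.27) and of FOXP1 at E18.5 (5.27, 3.73 to 7.25). Compared with all genes with a promoter peak, the strongest promoter peak of Shank2 exceeded between 11.2% (FOXP1 at E18.5) and 53.9% (ARID1B at E18.5) of them.

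Away from promoters, Shank2 had 1 locus in all 6 lists, 157.9 kb from the start in intron 10 (chr7:144159373-144160107), where ARID1B had its highest peaks of the gene, 7.57 (6.06 to 9.35) and 8.56 (6.56 to 11), above 92.6% and 93.3% of ARID1B peaks outside promoters. FOXP1 had 5.32 and 4.24 and TCF7L2 had 3.68 and 3.50 at this locus. TCF7L2 was highest outside promoters 35.8 kb from the start at E15.5 (4.52, 3.29 to 6.06) and 36.5 kb from it at E18.5 (4.27, 3.05 to 5.82), at a locus in intron 2 that also had ARID1B at 5.53 and 5.75 and FOXP1 at 4.56 at E15.5. FOXP1 was highest outside promoters past the end of the gene, 424.3 kb from the start (chr7:144425869-144426385), at both stages, with 5.82 (4.28 to 7.75) and 5.41 (3.85 to 7.43). Of the 25 loci, 5 were of ARID1B alone, the highest with 3.75 (2.72 to 5.05) at E15.5, and 4 of FOXP1 alone, the highest with 4.82 (3.36 to 6.74) at E18.5.

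The windows around the highest summits of the intron 2 locus and of the flanking locus are shown, the first around the ARID1B summit at E18.5 (the TCF7L2 summits of that locus lie outside the window) and the second because it held the highest FOXP1 peaks of Shank2 outside promoters, with capitals at matches to the forkhead core and a CTCF-like core (CCA, AG, and GGC, each 2 bases apart) on either strand.
Shank2, 35.9 kb from the start (chr7:144037739-144037938): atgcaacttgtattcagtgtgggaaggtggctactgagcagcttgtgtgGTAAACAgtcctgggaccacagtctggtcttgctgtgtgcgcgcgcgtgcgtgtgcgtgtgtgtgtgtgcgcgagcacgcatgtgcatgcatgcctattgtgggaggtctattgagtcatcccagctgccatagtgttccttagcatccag
Shank2, 424.3 kb from the start (chr7:144426093-144426292): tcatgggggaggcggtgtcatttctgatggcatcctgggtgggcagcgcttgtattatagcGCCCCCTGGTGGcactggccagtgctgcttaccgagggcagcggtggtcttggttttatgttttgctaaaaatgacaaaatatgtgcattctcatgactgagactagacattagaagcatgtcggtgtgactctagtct
The first window held 1 forkhead match, and its highest peak was of ARID1B. The second held 1 CTCF-like match whose middle lay 33 bp from the FOXP1 summit, and it overlapped an exon of the non-coding RefSeq gene Gm34561. The same CTCF-like letters were in 9.52% and 11.8% of all FOXP1 windows outside promoters at E15.5 and E18.5, and in 2.9% and 2.64% of those of ARID1B.

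Over the 4 genes, 25 groups of starts (TSSs at most 500 bp apart) were annotated, and 8 of them had a peak in all 6 lists, 7 in some lists, and 10 in none. Of the 52559 starts of all protein-coding genes, 27.9% had a peak in all 6 lists, 6405 had one in 1 to 5 lists, and 31512 had none. All 3 TRs were present at 11 of the 25 starts at E15.5 and at 9 at E18.5, against 31% and 28.5% of all starts. Of the first starts of the 4 genes, 2 (those of Shank3 and Ank2) were bound in all lists, against 54.7% of the first starts of all genes with 2 or more starts. The other starts bound in all lists were later starts, of which 14.4% were bound in all lists over these genes. At Shank3, the first start and the second, 1.7 kb into the gene, shared the same peaks.

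**Figure D4:**
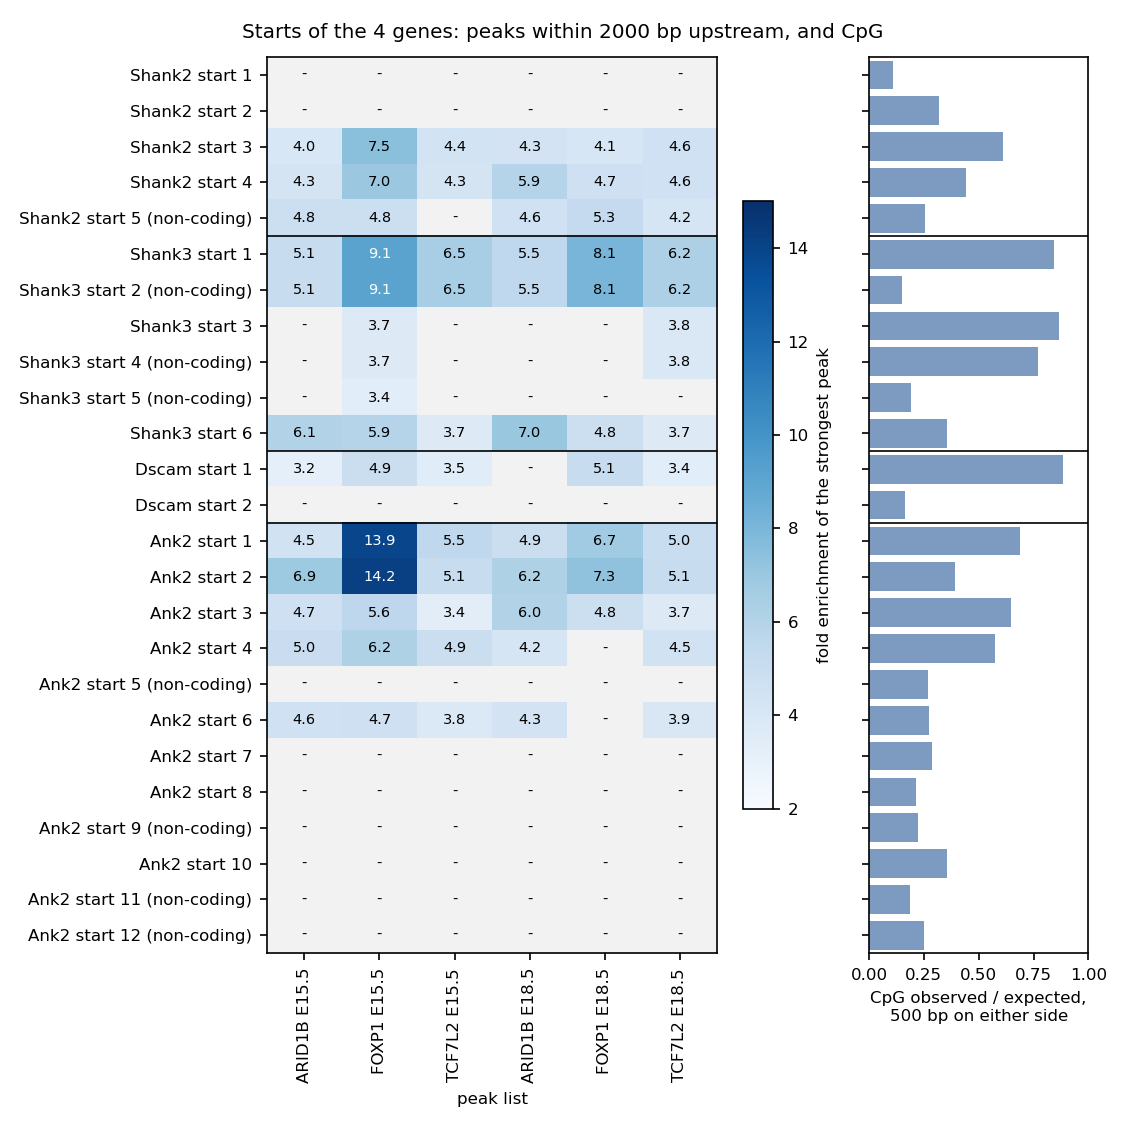
Fold enrichment of the strongest peak within 2000 bp upstream of each of the 25 starts of the 4 genes in each list (left, with a dash for no peak), and the ratio of observed to expected CpG in the 500 bp on either side of each start (right). The 10 starts without a peak had CpG ratios between 0.111 and 0.354.

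The starts of the 4 genes without a peak in any list were poor in CpG. Their median ratio of observed to expected CpG was 0.237, with a range of 0.111 to 0.354, against 0.215 over the 31512 unbound starts of all genes. The 8 starts bound in all lists had a median of 0.525, with a range of 0.150 to 0.843, against 0.727 over 14642 such starts. The 7 starts bound in 1 to 5 lists had a median of 0.577, above that of the starts bound in all lists, whereas over all genes the median of such starts was lower (0.388). The groups of starts overlapped in their CpG, since the second start of Shank3, with the ratio of 0.150, was bound in every list, and the sixth start of Shank3 (0.355), also bound in every list, differed little from the highest unbound start (0.354). At the first start of Dscam, which was bound weakly, the ratio was 0.885, the highest of the 25.

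The fold enrichments of ARID1B and FOXP1 were set side by side where both had a peak at a locus. At E15.5, both had a peak at 12 promoter loci of the 4 genes, and the fold was higher for ARID1B at 2 of them, whereas outside promoters it was higher for ARID1B at 36 of 49 loci. The genome showed the same order, with ARID1B higher at 11.5% of promoter loci and 60.3% of other loci. Ank2 had ARID1B higher at 0 of 6 promoter loci and 13 of 13 other loci, and Dscam had ARID1B higher at 18 of 26 other loci. At E18.5, ARID1B was higher at 3 of 9 promoter loci and 5 of 8 others, against 12.9% and 58.7% of all such loci. Fold enrichments of different antibodies are not on a common scale, so these counts describe the lists and not amounts of protein on DNA. By the rank of a peak among those of its class in its own list, ARID1B was higher at 7 of 12 promoter loci at E15.5 and 8 of 9 at E18.5, against 42.5% and 60.8% of all such loci, and outside promoters at 35 of 49 and 6 of 8, against 61.7% and 71%. For Ank2 at E15.5, these counts by rank were 4 of 6 and 12 of 13.

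**Figure D5:**
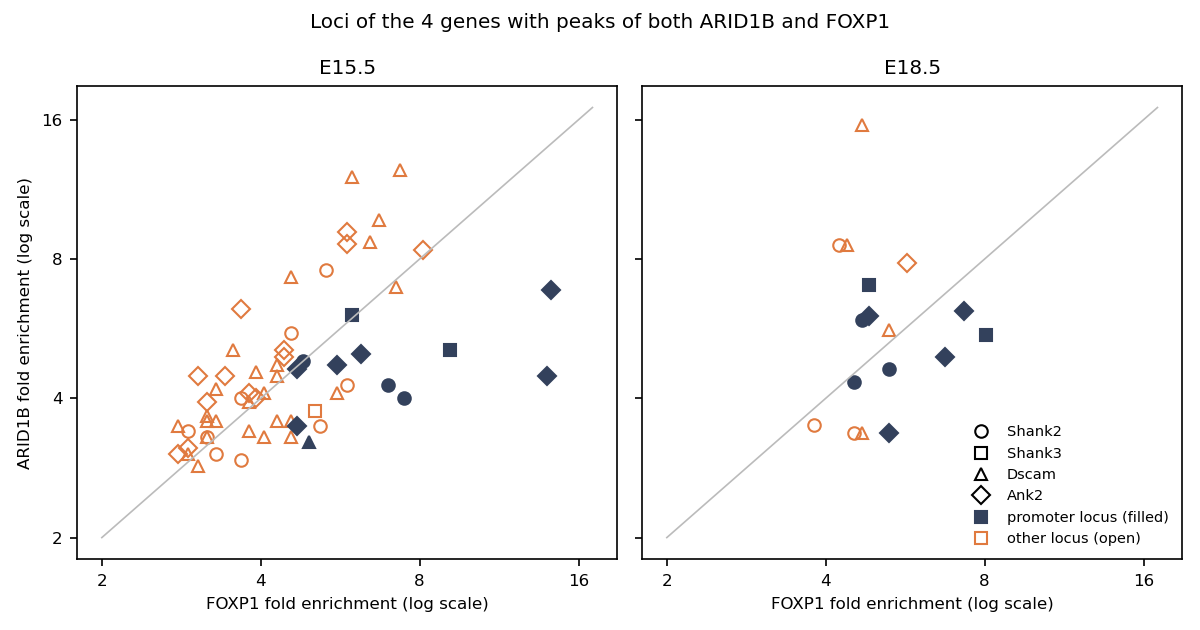
Fold enrichment of ARID1B (vertical axis) against FOXP1 (horizontal axis) at the loci of the 4 genes with peaks of both, at E15.5 (left) and E18.5 (right), on log scales with the line of equal values. At E15.5, 36 of 49 loci outside promoters (open symbols) lay above the line and 2 of 12 promoter loci (filled symbols) did.

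The lists of each TR were compared between the stages, where the shorter list limits how many peaks of the longer one can be shared. Of the ARID1B peaks at the 4 genes at E15.5, 72 of 99 overlapped an ARID1B peak at E18.5, and 74 of 85 did in the other direction, against 78.2% and 85.5% of all ARID1B peaks. For FOXP1, 24 of 87 peaks at E15.5 overlapped a peak of the later list, against 34.2% of all its peaks, and 26 of its 27 peaks at E18.5 were present at E15.5 (96.3% of all). For TCF7L2, 33 of 34 peaks at E15.5 were present at E18.5 (95% of all), and 30 of 57 the other way (56.5% of all).

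By gene, 5 of the 32 FOXP1 peaks of Dscam at E15.5 were present at E18.5, against 10 of 22 at Shank2, 2 of 6 at Shank3, and 7 of 27 at Ank2. Among the FOXP1 peaks of the 4 genes at E15.5 with a fold enrichment of at least 4, which exceeds the lowest fold called at E18.5, 11 of 13 at promoters and 10 of 30 elsewhere were present at E18.5, against 86.7% and 40.6% of all such peaks. Among ARID1B peaks of this height, 12 of 12 at promoters and 30 of 31 elsewhere were present (99.4% and 98.2% of all). The FOXP1 list at E18.5 had a background that corresponds to 26.3 M reads in the smaller of its ChIP and input libraries, the least of the 6 lists, against 64.5 M reads at E15.5. The ChIP reads alone correspond to 46.9 M at E18.5 and 64.5 M at E15.5. Stage and depth thus cannot be told apart for FOXP1.

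Promoter binding was also read for genes that act beside the 4 members. Of 13 genes of the postsynaptic scaffold, 12 had a promoter peak in all 6 lists, against 51.8% of all protein-coding genes, and Dlg3, a scaffold of the PSD-95 family, lacked ARID1B at E15.5. The highest medians over the 6 lists were those of Dlg4, which encodes PSD-95 (fold enrichment 12.3), and Dlgap2, which encodes a partner of PSD-95 and the SHANK proteins (9.40). Of 9 genes of ankyrins, spectrins, and their membrane partners, 8 had such a peak in all 6 lists and L1cam, an adhesion molecule that binds ankyrins, lacked ARID1B at E18.5. Sptan1 and Sptbn1, spectrin genes, had the highest medians (11.1 and 8.24).

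Among neuronal adhesion genes, the group of Dscam, 10 of 16 had a promoter peak in all 6 lists, a share near that of all genes (51.8%), 5 in some, and 1 (Cntn3) in none. Nrxn3 and Cntn4 lacked TCF7L2 at E15.5 and FOXP1 at E18.5, Nlgn3 lacked FOXP1 at E18.5, and Cntn5 and Cntn6 had only FOXP1 at E15.5 and ARID1B at both stages. Nlgn2, the neuroligin of inhibitory synapses, and Ncam1 had the highest medians (9.84 and 9.63). The closest relatives of the members, Shank1, Dscaml1, Ank1, and Ank3, which were named for their kinship, had a promoter peak in every list, with medians of 5.47, 5.48, 5.05, and 7.26.

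Apart from the E-box, motif matches were few at the summits of the 4 genes. The forkhead core TGTTTAC was in 3 of 87 FOXP1 windows of 200 bp at E15.5 and 0 of 27 at E18.5, against 2.89% and 2.28% of all FOXP1 windows. The TCF/LEF core CTTTGAT was in 2 of 34 TCF7L2 windows at E15.5 and 2 of 57 at E18.5, against 2.36% and 2.58%. Outside promoters, the E-box CATCTG was in 28 of 80 ARID1B, 20 of 69 FOXP1, and 7 of 21 TCF7L2 windows at E15.5, against 34.5%, 27.1%, and 25.9% of all such windows. At E18.5 it was in 23 of 70, 4 of 16, and 13 of 40, against 34.0%, 23.2%, and 24.5%. CTCF-like matches were in 7 of 87 FOXP1 windows at E15.5 and 3 of 27 at E18.5, against 7.99% and 6.98%, and all of them lay outside promoters.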

How the data were processed

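Peak lists of 6 ChIP experiments (24 libraries of mouse cortex, 12 ChIP and 12 input) were analysed. By the study's methods, with versions from the submitters' processing notes, reads were aligned to mm10 (GRCm38) with BWA 0.7.15 and filtered with SAMtools, and peaks were called with MACS2 2.2.7 against input, without a local background, on merged replicates. How duplicate reads were treated is not stated. The deposited fold enrichment is a ratio of reads over background at the summit, the deposited −log10 values are those of the p and the q, and the deposited score column was not used. All peaks on the main chromosomes end within the GRCm38 chromosomes.

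Genes, starts, and exons were taken from GENCODE M21, which is another version than the study's methods name. The background and the weight of 1 ChIP read were recovered from the pairs of fold enrichment and −log10 p (all within 0.01 of a whole read), after a check on simulated data. Loci are unions of peaks that overlap by at least 1 base. Motifs and CpG were read from the RefSeq GRCm38 genome in Python 3.11.15 with pysam 0.24.0. Promoter shares and densities of all protein-coding genes served as background. Named loci were those in all 6 lists, the highest peak of each TR and stage at a gene, and the highest loci of a single TR, of which 1 is not reported here; other genes were named where they lacked a promoter peak in at least 1 list or had one of the 2 highest medians of their group. The members and gene lists were chosen with earlier results of these data known. Alternatives varied the peak threshold, the window, the promoter, the starts, and the overlap.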

Additional observations from a re-analysis of the deposited data

How the results depend on the processing

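The counts moved with the threshold that a peak had to pass. At a −log10 p of 15 or more, the 4 genes kept 31 ARID1B, 27 FOXP1, and 8 TCF7L2 peaks at the earlier stage and 30, 3, and 12 at the later, the members with a promoter peak of TCF7L2 at E15.5 and of FOXP1 at E18.5 were 2 each, the loci with all 3 TRs were 8 and 3, the loci in all 6 lists were 3, and the starts with all 3 TRs were 5 and 4. With a fold enrichment of at least 4, the peaks were 43, 43, and 19 at E15.5 and 48 and 19 for ARID1B and TCF7L2 at E18.5, the loci with all 3 TRs at E15.5 were 13, and the loci in all 6 lists were 7. In all, 69 of 89 recomputed counts stayed within 1.5 times the reported count, among them every count under another window, promoter, grouping of starts, or overlap, and under the starts of RefSeq, an alternative chosen after seeing the data. No paired analysis was possible because each list was called on merged replicates, and for the same reason no replicate could be left out. Depth limits what a missing peak means, most of all for FOXP1 at E18.5. The counting intervals leave out variation between animals.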

Other observations

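At Shank2, the RefSeq annotation, looked at after the peaks had been seen, places 15 predicted transcripts at starts 23.3 kb upstream of the first start of GENCODE (chr7:143978618-143978887), outside the window of 20 kb. The 2000 bp upstream of these starts had peaks in all 6 lists. Their fold enrichments were 3.13 (2.2 to 4.33) for ARID1B, 6.33 (4.71 to 8.33) for FOXP1, and 4.41 (3.21 to 5.94) for TCF7L2 at E15.5, and 4.21 (2.86 to 5.98), 4.38 (3.0 to 6.22), and 4.93 (3.61 to 6.58) at E18.5. The CpG ratio around the start was 0.641, against 0.111 and 0.321 at the first 2 starts of GENCODE, which had no peak, and 0 genes of GENCODE lay within 20 kb of it. Of the other 14 starts of RefSeq that lay over 2000 bp from any GENCODE start of a member, 11 had no peak in any list, among them 5 at Ank2, 2 at Dscam, and 1 at Shank3.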
